A study of Caenorhabditis elegans with 2 samples.

Results

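Genes of 7 families of developmental transcription factor genes were examined for peaks of the tagged protein K12H6.12 in whole young adult Caenorhabditis elegans. The members were the protein-coding genes whose names begin with ceh-, hlh-, tbx-, elt-, fkh-, ets- or sox-, except 1 bHLH gene that is not analysed here. This gave 131 gene entries of 19972 coding genes, and the 19841 others served as background. The families held 63 homeobox (ceh), 24 basic helix-loop-helix or bHLH (hlh), 19 T-box (tbx), 9 forkhead (fkh), 7 ETS (ets), 6 GATA (elt) and 3 SOX (sox) entries. Both entries named tbx-30 were kept, so the members carry 130 names. A name records a family of DNA-binding domain and not where a gene acts. The rule used names and no value of the peak lists, but it was chosen with earlier results of these data known.

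The animals were of strain OP214, which carries unc-119(ed3) III and the transgene wgIs214 and stably expresses K12H6.12 with a C-terminal GFP-FLAG tag. Pooled males and females were collected as young adults at 72 hours, after bleaching and synchronisation as starved L1 larvae. Chromatin was sonicated and precipitated with an antibody to GFP, in 2 biological replicates numbered 2 and 3. Both form 1 group with the same tag, and the labels name no second condition. The promoter that drives the transgene is not given in the sources used here, and the control alignment was not used here. In chromatin of whole animals, a site bound weakly in many cells and a site bound strongly in few cells cannot be told apart.

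Each of these families is defined by its DNA-binding domain. Homeodomain proteins include the Hox proteins, which set position along the body axis, and their cofactors. Proteins of the bHLH class bind DNA as dimers and include the factors that start muscle and neuron fates. GATA factors drive hypodermal and intestinal fates in C. elegans, and T-box, forkhead, ETS and SOX factors act in many tissues. Genes for such factors are often controlled by regulatory sequence far from the start of the gene as well as close to it.

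Peaks were deposited as 4 lists. The list thresholded by irreproducible discovery rate (IDR), a measure of how well the ranks of peaks repeat between replicates, held 2268 peaks. The relaxed lists held 30000 peaks for the pooled replicates, 27073 for replicate 2 and 30000 for replicate 3. A gene was counted where a summit, the highest point of a peak, lay in its promoter window, which begins 1000 bp before the annotated 5' end and stops 200 bp after it, or between the ends of the gene (the gene body). The signal of a peak is the authors' score with no stated scaling, so it is read within a list only; in the IDR list it began at 97.9 and had a median of 146.5. The lists give no read totals, so depth is unknown. Intervals on shares are exact binomial 95% intervals and cover counting over genes only.

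Sequences are shown for the 4 IDR promoter summits of members, on which the promoter counts rest, and for 2 of the intronic summits of fkh-7, the member with the most peaks. They are on the plus strand of WBcel235 (ce11), from RefSeq, and run 75 bases to each side of the summit, except for ceh-38. Its summit lies in the 5' UTR, and only the stretch of the peak upstream of the gene is printed. Capitals mark matches to GAGAGA or its reverse complement TCTCTC. The fkh-7 sites were chosen after their values were seen.
ceh-38 (chrII:6951427-6951525, plus strand): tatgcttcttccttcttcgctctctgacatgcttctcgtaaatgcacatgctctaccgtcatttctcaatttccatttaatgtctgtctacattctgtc
hlh-11 (chrIII:9619362-9619512, plus strand): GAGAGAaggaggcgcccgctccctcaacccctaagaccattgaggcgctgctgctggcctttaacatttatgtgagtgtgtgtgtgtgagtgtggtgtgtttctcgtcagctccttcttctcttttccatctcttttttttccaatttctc
ceh-20 (chrIII:6979051-6979201, plus strand): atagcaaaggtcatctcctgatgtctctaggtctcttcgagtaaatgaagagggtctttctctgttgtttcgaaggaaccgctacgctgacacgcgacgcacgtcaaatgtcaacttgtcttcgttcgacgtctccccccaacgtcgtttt
hlh-1 (chrII:4518400-4518550, plus strand): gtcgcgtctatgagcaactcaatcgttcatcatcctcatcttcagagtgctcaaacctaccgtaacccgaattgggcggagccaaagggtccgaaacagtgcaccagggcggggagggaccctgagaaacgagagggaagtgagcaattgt
fkh-7 (chrIV:5594035-5594185, plus strand): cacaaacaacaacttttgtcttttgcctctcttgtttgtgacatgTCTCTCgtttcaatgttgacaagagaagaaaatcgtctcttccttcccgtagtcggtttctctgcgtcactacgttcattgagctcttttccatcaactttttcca
fkh-7 (chrIV:5586422-5586572, plus strand): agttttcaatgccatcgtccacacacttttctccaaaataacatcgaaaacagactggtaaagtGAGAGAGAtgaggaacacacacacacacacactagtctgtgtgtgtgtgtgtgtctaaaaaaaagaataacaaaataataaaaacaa

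The motif GAGAGA was the only one of 7 searched that was found in these printed stretches. It stood at position 1 in the hlh-11 stretch, as TCTCTC at position 46 in the first fkh-7 stretch, and at positions 65 and 67 in the second, where the matches overlap. In wider windows of 201 bp around all 17 member summits, GAGAGA on either strand was found in 7 (41.2%), against 45.4% of the 2251 windows of other IDR summits. Outside fkh-7, the only member window with GAGAGA was that of the hlh-11 promoter summit. The E-box CACGTG, a site of many bHLH dimers, was found in 1 member window (5.88%), against 8.17% of other windows. The GATA site TGATAA was found in 2 (11.8%), against 7.60%, and the forkhead site GTAAACA in 2 (11.8%), against 4.35%. The homeodomain site TAATTA was found in 1 (5.88%), against 3.78%, and the SOX site AACAAT in 5 (29.4%), against 14%. The ETS site CGGAAG was in 0 of 17, against 6.04%. These counts are small, a match is not a binding site, and 9 of the 17 windows lie in fkh-7. Median GC content was 45.8% in member windows and 46.3% in other windows.

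Few members had an IDR summit at their start. The promoter windows of 4 of 131 members held one (3.05%, interval 0.838 to 7.63%), against 7.12% of other coding genes. The share of other genes would give 9.33 members, and weighting the other genes to the chromosomes of the members gave 7.36%. The members' share was therefore 0.429 times that of other coding genes, and the interval of the members reaches the background. Among the 4 genes, 2 were homeobox genes (ceh-38 and ceh-20) and 2 were bHLH genes (hlh-11 and hlh-1). No T-box, GATA, forkhead, ETS or SOX member had one.

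**Figure D1:**
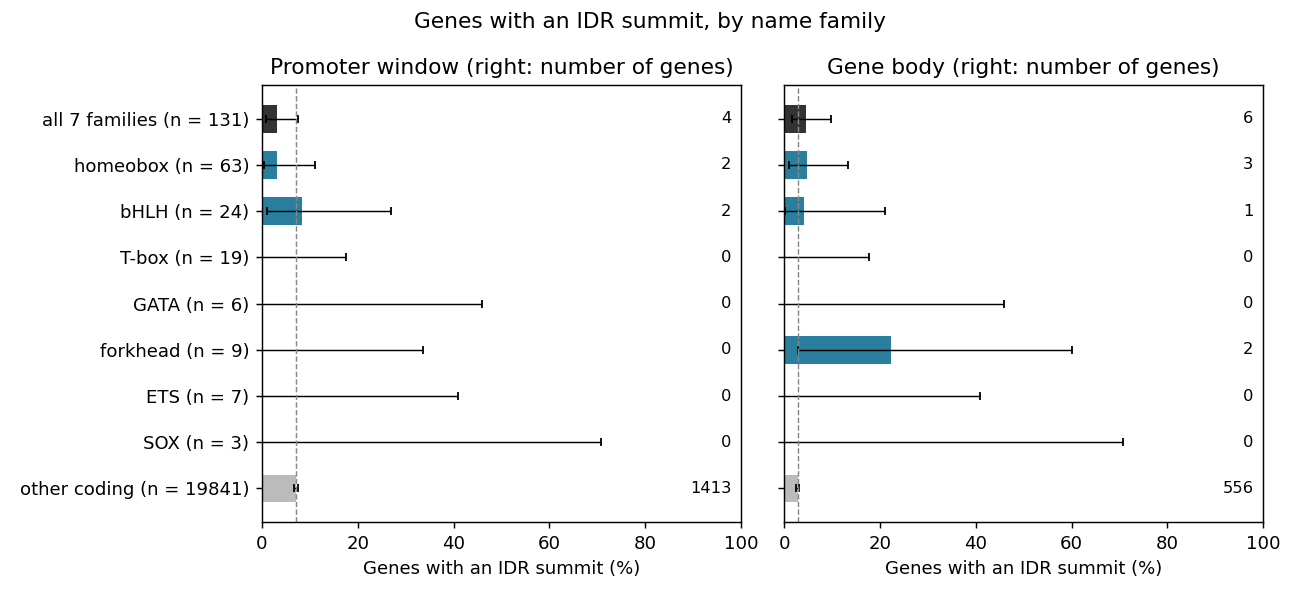
Percent of genes with an IDR summit in the promoter window (left) and the gene body (right) for all 7 families, each family and other coding genes; bars are shares, lines exact binomial 95% intervals, the dashed line marks other coding genes and the number of genes is at the right of each row. In the promoter window the share was 3.05% for all members and 7.12% for other coding genes, and in the gene body it was 4.58% and 2.80%.

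By family, the promoter share was 3.17% for homeobox genes (interval 0.387 to 11%) and 8.33% for bHLH genes (1.03 to 27%), both with the background inside the interval. Of T-box genes 0 of 19 had a promoter summit, which allows a share of up to 15.8%, and the background would give 1.35. The same limit was 33.3% for 0 of 9 forkhead genes, 42.9% for 0 of 7 ETS genes, 50% for 0 of 6 GATA genes and 100% for 0 of 3 SOX genes. These limits take 3 counts over the number of genes and differ from the exact intervals that are drawn. In every family the interval or limit included the background, so no difference of a single family was detectable at these sizes. By chromosome, the 4 genes were 2 of 23 members on chromosome II and 2 of 22 on chromosome III. Chromosome X held 41 members (31.3%), against 13.6% of other coding genes, and 0 of these 41 had a promoter summit, against 7.14% of other coding genes on X. By the same limit of 3 counts, 0 of 41 still allows a share as high as that background.

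The strongest promoter peaks of the families were at a homeobox and a bHLH gene. The first, ceh-38 (WBGene00000459, chrII:6951526-6955409, plus strand), encodes a ONECUT homeodomain protein. Its IDR peak spanned chrII:6951427-6951669 with the summit 45 bp downstream of the 5' end, in the 5' UTR. The summit had a signal of 347 in the pooled list (rank 140), 205 in replicate 2 (rank 114) and 144 in replicate 3 (rank 193). By pooled promoter signal, ceh-38 took place 104 among all coding genes. The summit lay 271 bp upstream of malt-1 and in its promoter window too, so the peak cannot be assigned to either gene alone.

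The second, hlh-11 (WBGene00001955, chrIII:9619711-9626529, plus strand), encodes a bHLH protein related to vertebrate AP-4. Its IDR peak spanned chrIII:9619306-9619690 with an intergenic summit 274 bp upstream of the 5' end, in the stretch printed above. The signal was 333 in the pooled list (rank 161), 229 in replicate 2 (rank 78) and 116 in replicate 3 (rank 351). It was place 118 among coding genes, and hlh-11 was the sole member with separate IDR summits in both its promoter window and its body. The body summit, in coding sequence 4046 bp downstream of the 5' end, was weak, with 99.0 pooled (rank 2222), 56.8 in replicate 2 and 43.4 in replicate 3.

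The other promoter peaks lay near the lower end of the IDR list. At ceh-20 (WBGene00000443, chrIII:6979884-6981785, plus strand), which encodes the PBX-type cofactor of Hox proteins, the summit was intergenic, 758 bp upstream. The signal was 107 pooled (rank 1939), 60.3 in replicate 2 (rank 2063) and 56.9 in replicate 3 (rank 1658), place 1260 among coding genes. At hlh-1 (WBGene00001948, chrII:4518574-4522528, plus strand), the MyoD homolog of body wall muscle, the summit was intergenic, 99 bp upstream. The signal was 99.8 pooled (rank 2190), 46.0 in replicate 2 (rank 3461) and 54.6 in replicate 3 (rank 1789), place 1380 among coding genes. Among the strongest 2268 peaks of replicate 2 the hlh-1 summit was missing, so it stood in the strongest set of replicate 3 alone.

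**Figure D2:**
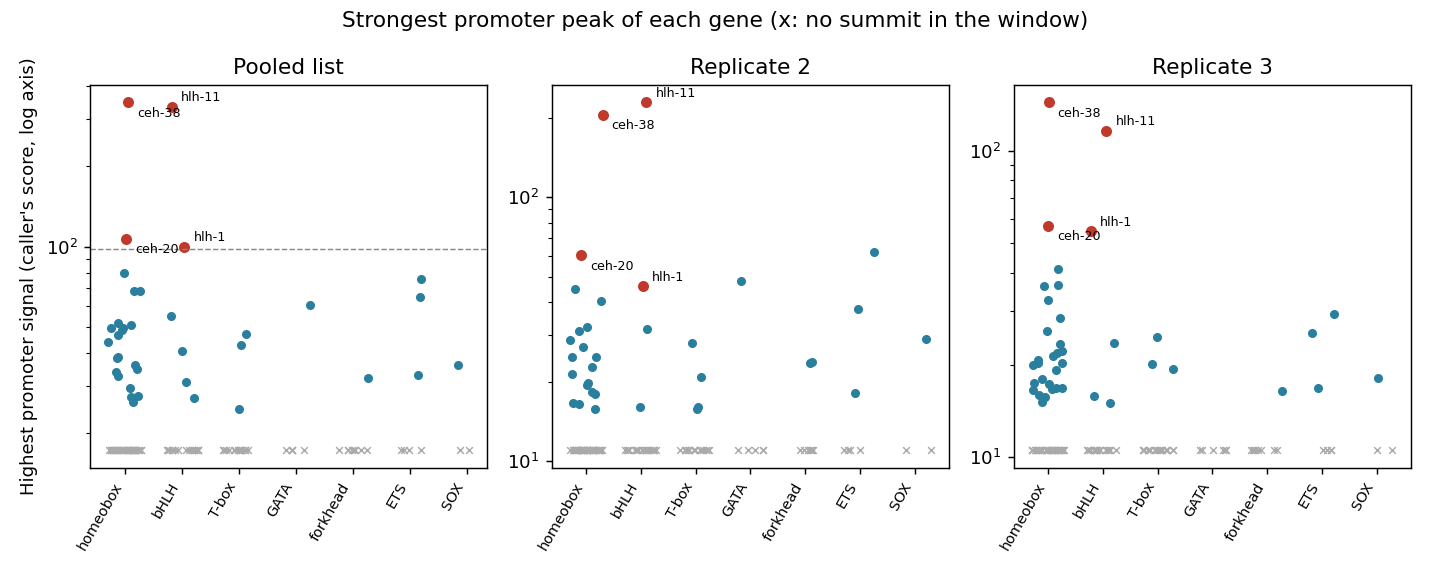
Highest signal of a peak with its summit in the promoter window of each member (log axis, the authors' score), by family, in the pooled list and both replicates; red points are members with an IDR promoter summit, blue points the other members with a peak and crosses members with none. The dashed line in the pooled panel is the lowest IDR signal of 97.9, and ceh-38 and hlh-11 stand above all other members in each panel.

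The members just outside the IDR threshold were homeobox and ETS genes. The highest pooled promoter signals below the threshold were 79.6 at ceh-39 (rank 3264), a ONECUT gene that acts in counting X chromosomes for sex determination, and 75.5 at ets-6 (rank 3572). The highest promoter signals of ceh-39 were 45.2 in replicate 2 and 36.2 in replicate 3. Those of ets-6 were 62.2 in replicate 2 (rank 1949) and 29.4 in replicate 3 (rank 7377). So ets-6 had a promoter peak among the strongest 2268 of replicate 2 alone. Each value is the highest in the window in its list, and it need not belong to the same peak in every list. By pooled signal, next came ceh-5 with 68.3, ceh-99 with 68.2 and ets-5, which acts in gas-sensing BAG neurons, with 64.7. These, apart from ets-6, are named because of their place next to the threshold.

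In the remaining families, again taking the highest signal in the window in each list, the strongest promoter peak was weak. For GATA genes it was elt-6, a factor of the hypodermal seam, with 60.4 pooled and 48.1 in replicate 2, and no promoter summit in replicate 3. For T-box genes it was tbx-2, which acts in pharyngeal muscle, with 47.1 pooled and 28.2 in replicate 2, again with none in replicate 3. For SOX genes it was sox-2 with 36.0 pooled, 29.1 in replicate 2 and 18.1 in replicate 3. For forkhead genes it was fkh-9 with 32.2 pooled, 23.8 in replicate 2 and 16.4 in replicate 3. The intestinal GATA gene elt-2 had no summit in its promoter window or body in any list.

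Counted over all families, the share of members at promoters was below that of other coding genes in each replicate and in the relaxed lists too. Among the 2268 strongest peaks, 4 members (3.05%) had a promoter summit in replicate 2, against 7.07% of other coding genes, and 4 (3.05%) in replicate 3, against 6.85%. A promoter summit in both of these sets was held by 3 members (2.29%), against 5.18% of other coding genes. Among pooled peaks with a −log10 q above 2, 6 members (4.58%) had one, against 10.4%. Over the full lists the counts were 37 members (28.2%) in the pooled list, against 35.4%, then 34 (26%) in replicate 2, against 33.3%, and 40 (30.5%) in replicate 3, against 36.3%. The members' interval included the background in each full list and in the 2268 strongest peaks of each replicate. Among pooled peaks with a −log10 q above 2 it was 1.70 to 9.70% and ended below the background. The pooled list shares its animals with both replicates, so these counts are not all independent.

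The members were below other coding genes at each number of strongest peaks given here. With the 5000 strongest pooled peaks, 9 members (6.87%) had a promoter summit, against 12.4% of other coding genes. With 10000 it was 18 (13.7%), against 18.6%, and with 20000 it was 30 (22.9%), against 27.7%. In replicate 3 the 10000 strongest peaks reached 10 members (7.63%), against 17.6%, and in replicate 2 they reached 15 (11.5%), against 18.2%. Where members had a pooled promoter peak, its median signal was 43.8, against 46.9 for other coding genes. Of the 37 members with a pooled promoter summit, 22 (59.5%) also had one in both replicates, against 61.0% of other coding genes. By family, 22 of 63 homeobox, 3 of 7 ETS, 3 of 19 T-box, 1 of 9 forkhead and 1 of 6 GATA genes had a pooled promoter summit, and the exact interval of each of these families included the background. Among homeobox genes the full lists gave 34.9% pooled, 30.2% in replicate 2 and 42.9% in replicate 3, so in the last of these they were above the 36.3% of other coding genes.

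**Figure D3:**
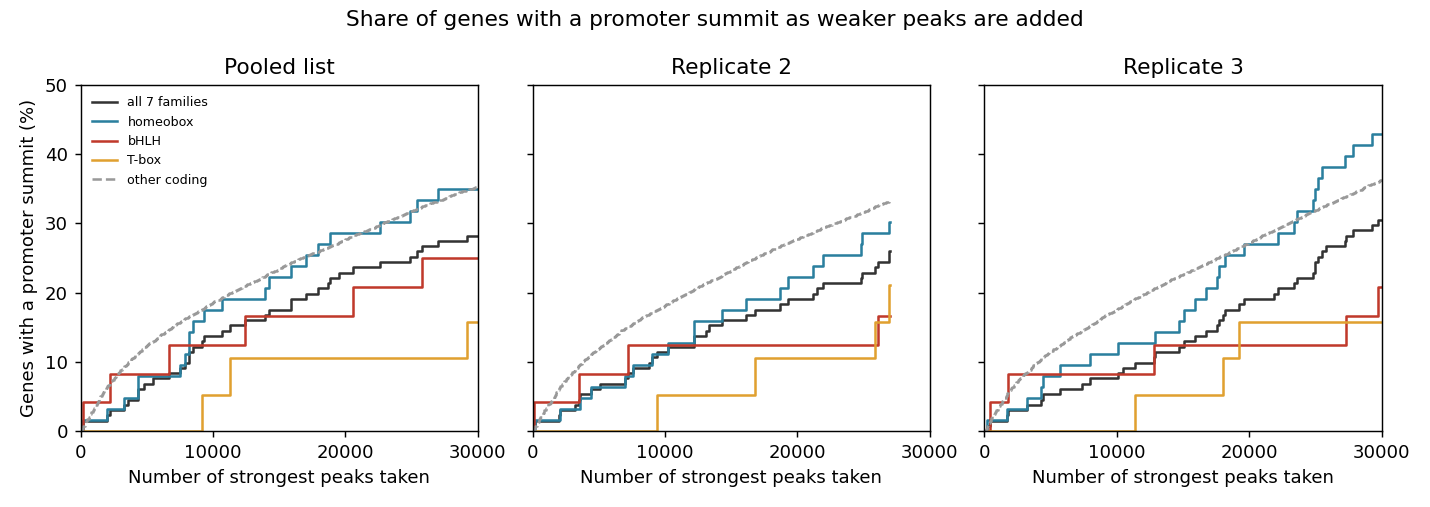
Percent of genes with a promoter summit (vertical axis) as the number of strongest peaks taken from a list grows (horizontal axis), for all 7 families, the 3 largest families and, dashed, other coding genes, in the pooled list and both replicates. At 5000 pooled peaks the members were at 6.87% and other coding genes at 12.4%.

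Gene bodies were counted in the same way. An IDR summit lay in the body of 6 members (4.58%, interval 1.70 to 9.70%), against 2.80% of other coding genes, a ratio of 1.63. The share of other genes would give 3.67 members, and weighting the other genes to the chromosomes of the members gave 3.07%. The interval of the members includes the background. These were the homeobox genes ceh-38, ceh-43 and ceh-8, the bHLH gene hlh-11 and the forkhead genes fkh-7 and fkh-9. The direction depended on the replicate: among the 2268 strongest peaks of replicate 2 alone, 4 members had a body summit (3.05%), against 2.66%, but among those of replicate 3 alone it was 3 (2.29%), against 3.11%. In the full lists the members' shares were below the background, with 54 (41.2%) against 42.9% pooled, 46 (35.1%) against 38.9% in replicate 2, and 56 (42.7%) against 47.1% in replicate 3. Members were of about the same median length as other coding genes, at 2069 bp and 2027 bp. Either a promoter or a body summit was found for 8 members (6.11%), against 9.13%.

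The ceh-38 body summit is the promoter summit described above. The body peaks of ceh-43, ceh-8 and fkh-9 were below the median IDR signal, and each overlapped a non-coding gene. In ceh-43, the ortholog of Distal-less, the summit lay in an intron 404 bp downstream of the 5' end (chrIII:4449311-4449766), inside a tRNA gene and the non-coding gene C28A5.12. Its signal was 108 pooled, 41.9 in replicate 2 and 69.6 in replicate 3, and 71.9% of the 31-base words around it were unique in the genome, the lowest value among member summits. In ceh-8, related to vertebrate Rax, the summit lay in the 3' UTR and in the non-coding gene ZK265.11, 621 bp upstream of the collagen gene col-63, with 104 pooled, 72.5 in replicate 2 and 38.9 in replicate 3. In fkh-9 it lay in an intron 4393 bp downstream of the 5' end (chrX:3822342-3822797), inside the non-coding gene K03C7.10, with 116 pooled, 74.0 in replicate 2 and 40.5 in replicate 3. The part of the overlapping genes in these signals was not tested.

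The forkhead gene fkh-7 (WBGene00001439, chrIV:5584684-5610378, plus strand, 25695 bp) held 9 IDR summits in its body and none in its promoter window. That was the highest number for any of the 19972 coding genes, and the next genes held 6. Per kb of gene it was not the highest. The value was 0.350 for fkh-7, against 0.473 for ZK470.2 (12.7 kb) and 0.406 for zfp-1 (14.8 kb), which held 6 summits each. Without fkh-7 the other members held 5 body summits, or 12.9 per Mb of gene, against 11.2 per Mb in other coding genes; with it they held 14, or 34.0 per Mb. The gene alone thus held 64.3% of the body summits of all members. It was picked out because its count was seen to be high.

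The 9 summits were spread along the gene, 1813 to 22888 bp downstream of the 5' end. In that order, their pooled signals were 185, 125, 132, 190, 123, 139, 166, 114 and 331. The strongest (rank 168) lay closest to the 3' end, in an exon of a non-coding transcript form, at chrIV:5607460-5607667, and the other 8 lay in introns. Of the gene's 6 annotated transcript starts, the nearest to this strongest summit was that of a non-coding form, 441 bp before it. With the promoter window set at the 5' end of any coding transcript, fkh-7 had an IDR promoter summit. The longest stretch without an exon, 16465 bp, held 6 of the 9 summits. The seventh and eighth lay 214 bp apart under the same replicate peaks, so 9 summits may overstate the number of separate sites. Another IDR summit stood 2251 bp upstream of the gene with a signal of 182, outside the promoter window.

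Both replicates showed peaks across fkh-7. In replicate 2 all 9 summits lay under peaks, 8 of them distinct, with signals of 66.2 to 192 and a median of 93.4, and all were among the strongest 2268. In replicate 3, 8 summits lay under peaks, 7 of them distinct, with signals of 43.8 to 141 and a median of 63.6, and 7 were among the strongest 2268. The summit 3841 bp downstream of the 5' end had no peak of replicate 3 over it. By rank, these peaks stood between 146 and 1727 in replicate 2 and between 212 and 2800 in replicate 3. All 31-base words in the windows of the 9 summits were unique in the genome, although the second printed stretch holds runs of simple repeats.

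**Figure D4:**
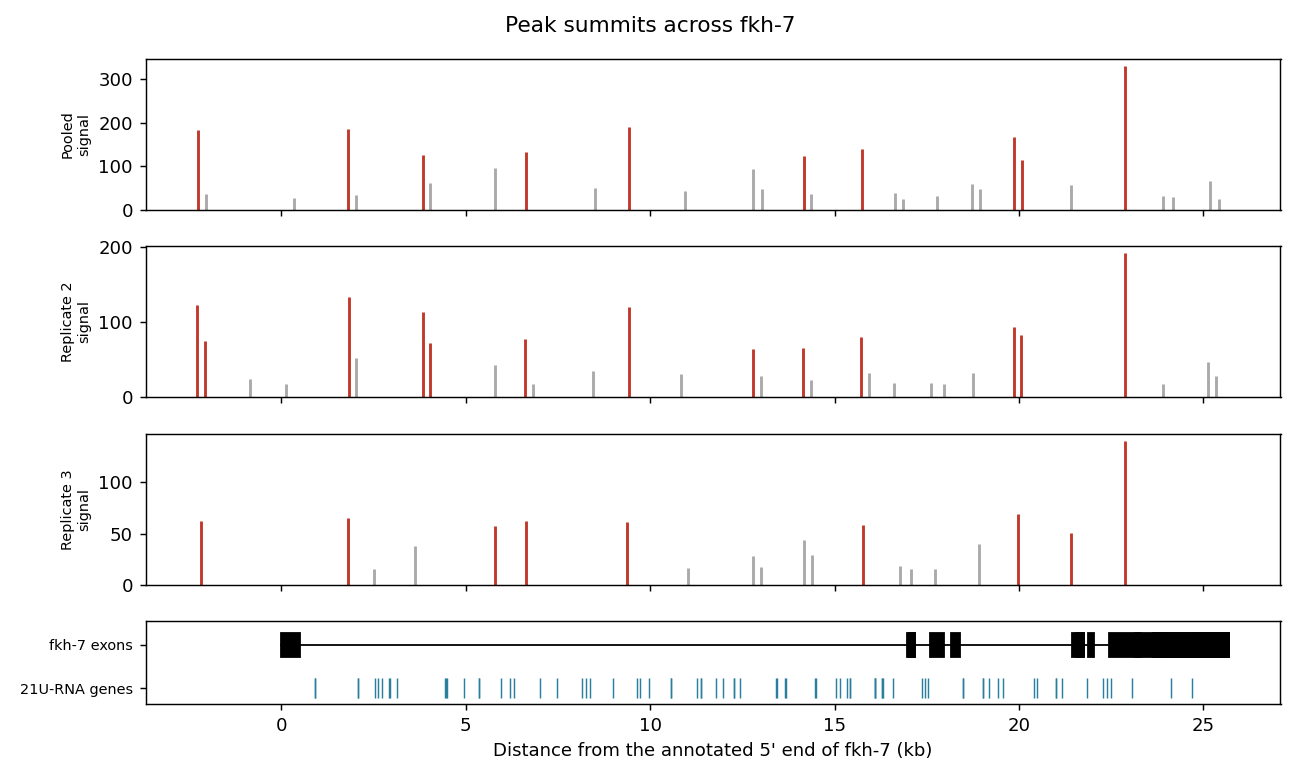
Peaks along fkh-7, with distance downstream of its 5' end on the horizontal axis (kb) and the authors' signal on the vertical axis, for the pooled list and each replicate; red lines are IDR summits (pooled) or summits of the strongest 2268 peaks (replicates), grey lines weaker ones, and exons and 21U-RNA genes are drawn at the bottom. The 9 IDR summits run along the whole gene, and the strongest, at 331, lies near the 3' end.

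Other long genes held fewer summits. Of 195 other coding genes of at least 20 kb, 44 (22.6%) had an IDR body summit, with a median of 0 and a maximum of 6. The other member of that length, the homeobox gene ceh-100 (21503 bp), had no body summit even in the pooled list. The body of fkh-7 also held 78 genes of 21U-RNAs, the small RNAs bound by the Piwi protein PRG-1. None of the 9 summits lay inside one, and the nearest 21U-RNA gene was 177 to 583 bp away. These genes are very short, so a summit would seldom fall inside one, and their part in the peaks was not tested. Another 10 coding genes held more 21U-RNA genes than fkh-7, and 1 of these had an IDR body summit. Of the 9 summits, 4 lay closer to the 5' end of C39H7.4, a gene outside fkh-7, than to that of fkh-7.

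**Figure D5:**
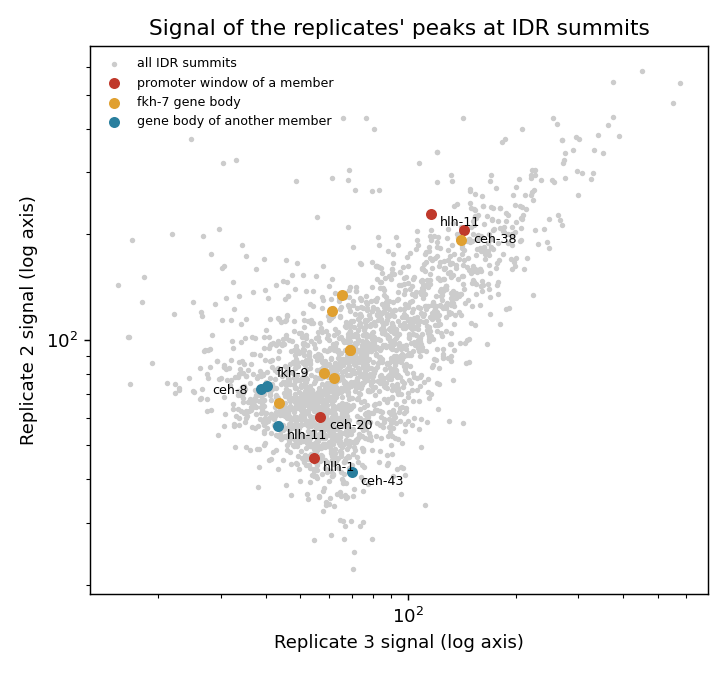
Signal of the replicate peaks at each IDR summit covered in both, replicate 3 on the horizontal and replicate 2 on the vertical axis (log axes, the authors' score), with member summits coloured. Of 17 member summits 16 are covered in both replicates, 8 of them in fkh-7, of which 2 coincide; scores of different lists have no shared scale, so the axes are read separately.

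In all, 17 IDR summits lay in the promoter window or body of a member. By annotation, 10 were in introns, 3 were intergenic and 1 each was in a 5' UTR, a 3' UTR, coding sequence and a non-coding exon. Both replicates had a peak over 16 of them, beside 2218 of all 2268 IDR summits. The IDR summits were the strongest of the pooled list, which shares its animals with both replicates. Of the 17, 10 were among the strongest 2268 peaks of both, and the matching number for all IDR summits is not given here. The median pooled signal of the 17 was 125, or 107 for the 8 summits outside fkh-7, against 146.5 for the IDR list as a whole.

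Summits assigned to members by distance mostly lay outside the promoter window. A member had the nearest coding 5' end for 20 IDR summits, over 14 members (10.7%), against 9.34% of other coding genes. Of these summits 15 (75%) were more than 1000 bp away, against 45.5% of summits nearest to other coding genes, and the median distance was 3046 bp, against 780.5 bp. Of the 20 summits, 6 belonged to fkh-7, and without it 9 of 14 (64.3%) were more than 1000 bp away, with a median of 1944 bp. In addition to fkh-7, they included a summit 1130 bp upstream of ets-5 with a signal of 225, inside a tRNA gene, and one 2172 bp upstream of the ONECUT gene ceh-48 with 160. Weaker summits lay 4522 bp upstream of tbx-2 (104), in an intron of Y54H5A.2, and 6487 bp upstream of the Hox gene ceh-13, the labial ortholog (103). The summits nearest to ceh-5 and ceh-51 also lay within other coding genes. Members also had more room upstream, with a median of 2036 bp to the next coding gene, against 933.5 bp, and the part of this spacing in the distances was not tested.

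From the 5' end to the nearest IDR summit, the median distance was 18281 bp for members, against 20270 bp for other coding genes. Among the larger families it was 10587.5 bp for bHLH genes, 16446 bp for T-box genes and 18658 bp for homeobox genes. In the small families it ran from 14886 bp for forkhead genes to 49340 bp for GATA genes and 56623 bp for ETS genes. No summit of any of the 4 lists lay in the promoter window or body of 40 members (30.5%), against 27.8% of other coding genes.

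A list of 65 genes of the same protein families that carry other names, often from mutant phenotypes, was set beside the members. An IDR promoter summit was found for 3 of them (4.62%, interval 0.962 to 12.9%), against the 7.12% above. At mdl-1, a Mad-like bHLH gene, the summit lay 67 bp upstream of the 5' end with 313 pooled (rank 187), 123 in replicate 2 and 191 in replicate 3. At daf-16, the forkhead factor of insulin signalling, it lay 401 bp upstream with 157 pooled, 75.7 in replicate 2 and 78.9 in replicate 3. This summit also lay inside the non-coding genes H36N01.1 and H36N01.4. At unc-30, a homeobox gene of GABA neurons, it lay 56 bp downstream, in the 5' UTR, with 128 pooled, 75.9 in replicate 2 and 51.7 in replicate 3. Body summits were found for 3 of the 65 (4.62%), against 2.80% of other coding genes. They were unc-30, by the summit just described, daf-16 and the Meis-type homeobox gene unc-62. The body summits had 133 and 216 pooled in daf-16, and 155 and 174 in unc-62. The 65 genes had a median length of 4481 bp, against 2027 bp for other coding genes. In the pooled list 25 of the 65 (38.5%) had a promoter summit, a share above the members' 28.2% and the 35.4% of other coding genes.

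Near-identical copies limit a few entries. In the promoter windows of 109 members at least 95% of 31-base words were unique in the genome, and in 4 less than 50% were. These were both tbx-30 entries (0%), hlh-28 (25.7%) and hlh-29 (26.6%), and the part of repeated sequence in their lack of peaks was not tested.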

How the data were processed

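The authors deposited 4 peak lists on ce11, per the file headers: 1 for each replicate, 1 for the pooled replicates and 1 thresholded by IDR. Each deposited peak has a signal score, whose scaling no header states, and a −log10 q-value. The aligner, the caller, its filters and the threshold of the IDR step were not given in the sources used here. All 2268 IDR peaks were found in the pooled list, of which they were the strongest. Genes came from Ensembl release 115 (WBcel235). Summits were counted in promoter windows (1000 bp before to 200 bp after the 5' end) and gene bodies, with Python 3.11.15, pandas 2.3.3, numpy 2.4.6 and scipy 1.17.1. The counting was tested on simulated data. A replicate value is the highest signal of its peaks covering a summit. For promoter windows without an IDR summit, it is the highest signal of its peaks with a summit in the window. With 1 group no test between conditions was possible, and shares are given beside those of all other coding genes. Named genes were members with an IDR summit, the member with the strongest pooled promoter peak in each family, and list genes of other names with an IDR promoter summit; other names were chosen after their values were seen. The members and lists were chosen with earlier results of these data known. Alternatives were other windows, overlaps, thresholds and gene starts, each replicate alone, and leaving out summits near tRNA genes.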

Additional observations from a re-analysis of the deposited data

How the results depend on the processing

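Members stayed below other coding genes at promoters under all 10 alternatives, with ratios of 0.396 to 0.587 around 0.429. The promoter count of 4 was 7 with a window from 2000 bp upstream to 500 bp downstream and 2 with the strongest 50% of IDR peaks, and it was 4 without replicate 2 and 4 without replicate 3. The body count of 6 was 2 with the strongest 50% of IDR peaks, and leaving out a replicate gave 3 to 4. The body ratio of 1.63 turned to 0.735 without replicate 2 and 0.89 among pooled peaks with a −log10 q above 2, was 1.15 without replicate 3, and was 1.09 to 1.56 under the other alternatives; the cause was not tested. Of the 7 families, 1 (bHLH) was above the promoter share of other coding genes. The 1 family above was ETS instead, with 14.3%, without replicate 3 (bHLH 4.17%), with the wider window (bHLH 8.33%, other coding genes 9.70%) and with −log10 q above 2 (bHLH 8.33%, other coding genes 10.4%). There were 2 when any overlap with the window or the 5' end of any coding transcript was used. With the 5' end of any coding transcript, fkh-7 joined the 4 members with a promoter summit. Over 70 family counts, 60 were within 1.5 times the reported count and 10 moved. Most of the 60 compare 0 with 0, in families without a promoter summit. In the families with a reported count above 0, 7 of 10 counts for homeobox and 8 of 10 for bHLH genes were within that range. No paired analysis was possible because the labels give 1 group. The replicates share tag and strain, depth is unknown, and families of 3 to 9 genes cannot show a shortfall.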
